A study of Homo sapiens with 204 samples.

Results

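Knockdown of RPS26, the gene of ribosomal protein eS26 of the small (40S) ribosomal subunit, was measured in A549 cells, which derive from a human lung tumour, by RNA-seq and by ribosome profiling (Ribo-seq, the sequencing of the mRNA fragments that ribosomes protect). The libraries were chosen by their labels: 2 libraries of the RPS26 siRNA in each assay, of 102 libraries per assay in the series. In the RPS26 group, cells received 40 nM of siRNA against RPS26 for 24 h with Lipofectamine RNAiMAX. In the control group, the cells of 6 libraries per assay (2 each of control series NC11, NC20 and NC21) received a non-targeting siRNA at the same concentration for the same time. All groups were given cycloheximide, which arrests elongating ribosomes, at 100 µg/ml for 5 min, and each lysate was divided between the 2 assays, so that each Ribo-seq library has an RNA-seq partner. The siRNA sequence is not given in the sources used here, nor is whether the siRNA was a pool; a single cell line represents the knockdown. Nothing in the labels says that the 2 lysates came from separate experiments; the p-values therefore measure the spread between these samples, which may be technical. To separate what RPS26 knockdown did from what knockdown of a ribosomal protein did in general, the same values were set beside 30 libraries called the other knockdowns. They belong to the 15 other targets with 2 libraries each, among them RPL15, RPL21, RPL24, RPL29, RPS3, RPS7, RPS9, RPS10, RPS12, RPS15, RPS15A and RPS16. Tests against them compare RPS26 knockdown with the mean of the 15 targets, and their SE and p-values rest on the spread within groups. The spread among the 15 targets does not enter, so a small p-value does not place RPS26 knockdown outside their range.

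eS26 sits at the mRNA exit channel of the 40S subunit, beside the 3′ end of 18S rRNA. It is escorted to the ribosome by the chaperone TSR2, and in yeast it takes the place that the assembly factor Pno1 holds in the immature subunit. Mutations of one RPS26 copy are a cause of Diamond-Blackfan anaemia, a failure of red cell production. When ribosome assembly is disturbed, RPL5 and RPL11, as part of the 5S ribonucleoprotein particle, bind MDM2 and stabilise p53. The mRNAs of ribosomal proteins and of several translation factors start with a C followed by a run of pyrimidines (the TOP motif), through which mTORC1 and LARP1 set their translation.

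The RPS26 RNA-seq libraries held 36.9 and 41 M counts (M, the SI prefix mega), against 30.7 to 42.5 M in the controls. The RPS26 Ribo-seq libraries held 14.5 and 15.5 M, against 15.1 to 41.9 M in the controls. The limit that a count of 0 allows (3 counts) came to at most 0.0814 CPM (counts per M counts of the library) in the RPS26 and 0.0977 CPM in the control RNA-seq libraries. In Ribo-seq it came to at most 0.207 CPM in the RPS26 and 0.199 CPM in the control libraries; such floors cover counting error only. The 2 NC20 control RNA-seq libraries stood apart from each other, by 101 times counting noise (chi-square per degree of freedom). This compares with 7.93 for the RPS26 pair, 4.46 for NC11 and 3.26 for NC21. The value does not say which NC20 library was the unusual one. Genes with any count numbered 22468 and 21477 in the first and second NC20 libraries, and 24262 to 24966 in NC11 and NC21. The column names carry sample numbers that place RPS26 among numbers 1 to 11 with NC11 and 8 of the other targets, among them RPS3, RPS9, RPS12, RPL15, RPL21, RPL24 and RPL29. The main counts are therefore also given against NC11 alone and against those 8. The 16 markers of lung epithelium and A549 cells summed to 12200 and 12900 CPM of mRNA in the RPS26 libraries, within the 9010 to 16300 CPM of the controls. SFTPB, NKX2-1 and CDKN2A, the last of them deleted in A549 cells, were under 0.5 CPM in all 8 libraries. The 10 fibroblast markers summed to 14.5 and 17.8 CPM of mRNA in the RPS26 libraries and 18.7 to 32.4 CPM in the controls, with 7 of the 10 under 0.5 CPM. Fibroblast footprints summed to 26.7 and 43.4 CPM in the RPS26 libraries and 22.9 to 29.5 CPM in the controls. Blood cell markers summed to 1.39 and 1.8 CPM of mRNA in the RPS26 libraries and 1.08 to 4.28 CPM in the controls. Their footprints summed to 14.4 and 232 CPM in the RPS26 libraries and 1.93 to 7.64 CPM in the controls. The part of these markers in the results was not tested.

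The target itself was low in both RPS26 libraries. RPS26 (ENSG00000197728) had 263 and 341 RNA-seq counts in the RPS26 libraries, against 6187 to 10764 in the 6 controls. The CPM used throughout are scaled, with library totals corrected by TMM. On that scale RPS26 had 6.89 and 8.20 CPM in the RPS26 libraries, 141 to 272 CPM with a median of 205 in the other knockdowns, and 184 to 300 CPM with a median of 208 in the controls. The RPS26 mRNA was left at 3.39% of the control mean (log2 fold change −4.88 ± 0.19, SE; edgeR adjusted p = 4.56e-17). The knockdown cannot be read from the footprints: RPS26 had 0 and 4 footprint counts in the RPS26 libraries and 1 to 25 in the controls, too few to test.

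Against the controls, 1427 mRNAs were higher (9.43% of 15128 tested) and 1469 lower (9.71%) in RPS26 knockdown; against NC11 alone, 11.8% were higher and 11.7% lower. Against the other knockdowns, 607 were higher (4.01%) and 636 lower (4.2%), and against the 8 targets among sample numbers 1 to 11, 9.41% were higher and 8.8% lower. The median log2 fold change over all mRNAs tested was −0.04 against the controls and 0.02 against the other knockdowns.

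Of 32 mRNAs of other small-subunit proteins, 6 fell against the controls and none rose (median log2 fold change −0.22, against −0.04 over all mRNAs); counts of a list are over its members that passed the low-count filter. RPS27, which encodes eS27, fell most after the target, to 40.1 and 43.5 CPM in the RPS26 libraries, against 112 to 245 CPM (median 174) in the other knockdowns and 148 to 260 CPM (median 178) in the controls. Both RPS26 values lay far below every other library of the comparison. The log2 fold change was −2.22 ± 0.19 against the controls (adjusted p = 1.13e-09) and −2.12 ± 0.18 against the other knockdowns (adjusted p = 1.93e-09). RPS14, which encodes uS11, a neighbour of eS26 on the 40S platform, had 337 and 344 CPM in the RPS26 libraries, 481 to 911 CPM (median 645) in the other knockdowns and 584 to 1025 CPM (median 628.5) in the controls. It too lay below all other libraries, by −1.05 ± 0.14 against the controls (adjusted p = 2.77e-06) and −0.93 ± 0.13 against the other knockdowns (adjusted p = 1.28e-05). RPS25, which encodes eS25 of the 40S head, had 85.3 and 92.6 CPM in the RPS26 libraries, 106 to 219 CPM in the other knockdowns and 133 to 201 CPM in the controls. Its log2 fold change was −0.82 ± 0.14 against the controls (adjusted p = 0.000107). That call was lost without the first RPS26 library, where the log2 fold change was −0.65. The others that fell were RPS9, RPS16 and RPS23. Of 47 large-subunit protein mRNAs, 1 rose and 13 fell against the controls (median −0.25), and 1 was higher and 1 lower against the other knockdowns. In all, 2 large-subunit mRNAs fell against the controls without the first RPS26 library, and 6 without the second; without the second NC20 library, 10 were lower against the other knockdowns. Without the first NC21 library, 10 small-subunit mRNAs fell against the controls.

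**Figure D1:**
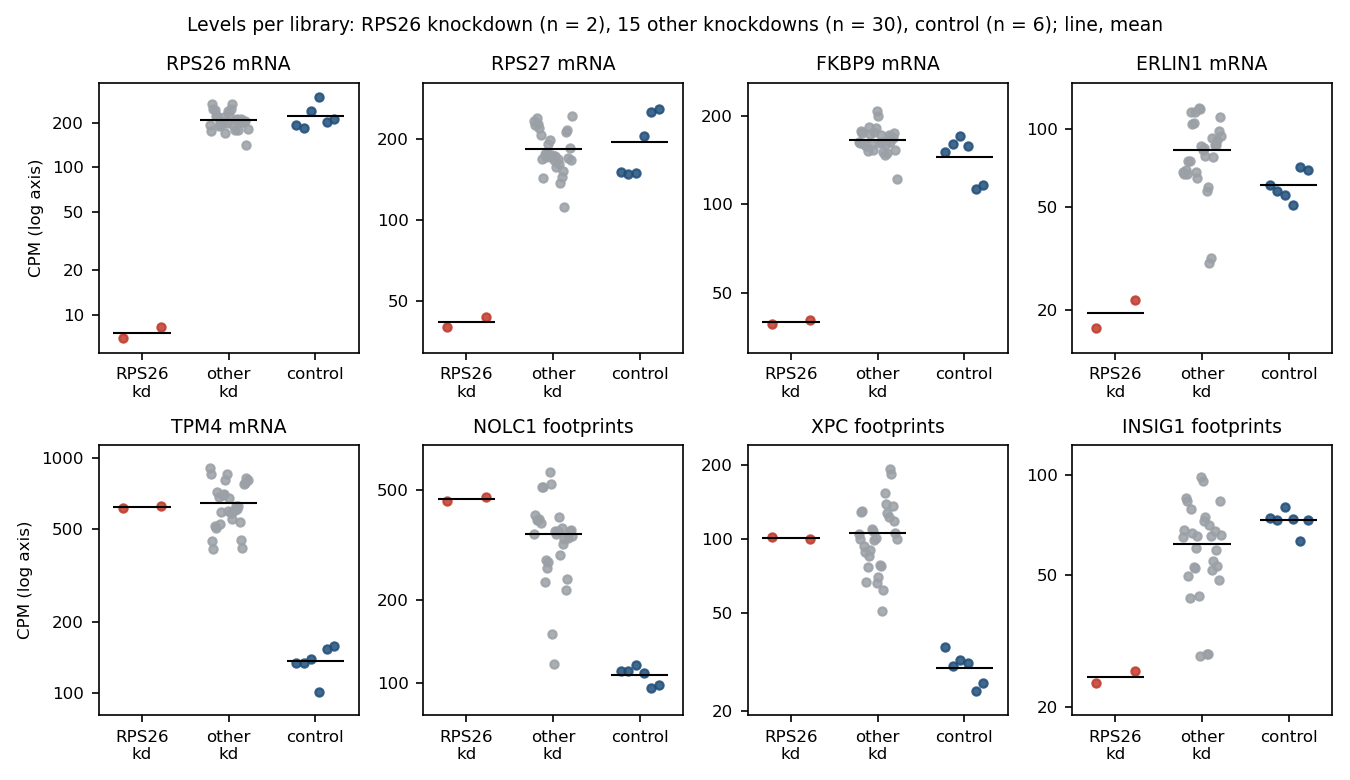
Level of 5 mRNAs (RPS26, RPS27, FKBP9, ERLIN1 and TPM4) and of the footprints of 3 genes (NOLC1, XPC and INSIG1) in each library, in TMM-scaled CPM on a log axis. Points are libraries of RPS26 knockdown (2), of the 15 other knockdowns (30) and of the controls (6), and the line is the group mean. RPS26, RPS27, FKBP9 and ERLIN1 mRNA sit below all other libraries in RPS26 knockdown, whereas TPM4 mRNA sits at 613.5 and 625.5 CPM within the range of the other knockdowns and above every control.

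The genes that load eS26 or finish the 40S subunit were examined next. TSR2, the chaperone of eS26, had 37.7 and 40.2 CPM of mRNA in the RPS26 libraries and 32.3 to 56.8 CPM in the controls. It had 61.0 and 51.2 CPM of footprints in the RPS26 libraries against 56.7 to 68.5 CPM in the controls; neither difference passed the test (adjusted p = 0.617 and 0.299). PNO1 had 53.6 and 54.1 CPM of mRNA in the RPS26 libraries, inside the 37.6 to 68.2 CPM of the controls (adjusted p = 0.821). NOB1, the nuclease that cuts the 3′ end of 18S rRNA, had 130 and 138 CPM of mRNA in the RPS26 libraries and 92.5 to 156 CPM in the controls (log2 fold change 0.20, adjusted p = 0.275). Of the 19 genes of this group, 2 mRNAs rose and none fell, a share near the background of 9.43%. They were TSR1 and RRP12, a 40S export factor. RRP12 mRNA had 142 and 143 CPM in the RPS26 libraries and 67.2 to 122 CPM in the controls (log2 fold change 0.62 ± 0.15, adjusted p = 0.00282). With either RPS26 library left out, the RRP12 call was lost, at 0.61, and 0 of the 19 mRNAs were called by edgeR.

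Ribosome assembly in the nucleolus was described by 2 lists. Of 41 genes of early 40S assembly, 13 mRNAs rose and 1 fell against the controls (median 0.19), and of 42 genes of 60S assembly, 10 rose and none fell (median 0.24). Without the first RPS26 library, 7 early 40S and 6 60S assembly mRNAs rose, and without the second, 6 early 40S mRNAs rose. BMS1, a GTPase of the early 40S precursor, had 120 and 120 CPM of mRNA in the RPS26 libraries and 37.3 to 71.7 CPM (median 66.8) in the controls. Both RPS26 libraries were above every control (log2 fold change 0.96, adjusted p = 1.52e-05). NOLC1, a nucleolar phosphoprotein that binds RNA polymerase I, had 248 and 258 CPM of mRNA in the RPS26 libraries, 83.2 to 304 CPM (median 194) in the other knockdowns and 61.6 to 79.1 CPM (median 74.4) in the controls. Its mRNA rose by 1.8 ± 0.08 on the log2 scale against the controls (adjusted p = 1.9e-16) and by 0.45 against the other knockdowns (adjusted p = 8.88e-05). The per-library median of the 60S assembly mRNAs, as a log2 ratio to the control mean, averaged 0.326 in RPS26 knockdown. This was higher than in any of the 15 other knockdowns, of which RPL24 was the highest at 0.29. In footprints, 2 of the 15 were above RPS26. For the early 40S list, 2 were above RPS26 in mRNA and 0 in footprints. The second NC20 library was low for both assembly lists, at −0.61 and −0.53.

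TPM4 had the largest increase in mRNA against the controls among the genes named by size. TPM4, which encodes a cytoskeletal tropomyosin, had 613.5 and 625.5 CPM in the RPS26 libraries, 410 to 903 CPM (median 614) in the other knockdowns and 101 to 159 CPM (median 137) in the controls. It rose by 2.18 ± 0.10 against the controls (adjusted p = 3.64e-16), and its difference from the other knockdowns was −0.01 ± 0.10 (adjusted p = 0.959). HABP4 had 18.5 and 19.7 CPM in the RPS26 libraries and 5.31 to 7.34 CPM in the controls (log2 fold change 1.57 against the controls and −0.01 against the other knockdowns). MESD, a chaperone of LDL-receptor family proteins, had 102 and 94.9 CPM in the RPS26 libraries and 23.3 to 37.6 CPM in the controls (log2 fold change 1.65 against the controls and 0.34 against the other knockdowns). For these mRNAs, both RPS26 libraries lay above all 6 controls.

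Several of the largest decreases set RPS26 knockdown apart from both reference sets. FKBP9, a peptidyl-prolyl isomerase of the endoplasmic reticulum, had 39 and 40.4 CPM in the RPS26 libraries, 122 to 208 CPM (median 163) in the other knockdowns and 113 to 171 CPM (median 154) in the controls. It fell by 1.87 ± 0.13 against the controls (adjusted p = 8.2e-12) and by 2.06 ± 0.12 against the other knockdowns (adjusted p = 6.76e-13), and no other library came near the RPS26 values. PLPBP, a pyridoxal phosphate binding protein, had 13.4 and 12.4 CPM in the RPS26 libraries, 16.7 to 58.1 CPM (median 49.3) in the other knockdowns and 38.1 to 60.0 CPM (median 44.7) in the controls. Its log2 fold change was −1.87 against the controls (adjusted p = 1.76e-11) and −1.82 against the other knockdowns (adjusted p = 1.93e-11). ERLIN1, which with ERLIN2 forms a complex of the endoplasmic reticulum that directs degradation of IP3 receptors, had 17.1 and 21.9 CPM in the RPS26 libraries, 30.4 to 120 CPM (median 83.7) in the other knockdowns and 50.7 to 71.1 CPM (median 59.2) in the controls. The groups did not overlap, but ERLIN1 mRNA was also below every control in RPS3 knockdown, at 30.45 and 31.83 CPM. The difference of RPS26 knockdown from the mean of the other knockdowns was −2.02 ± 0.11 (edgeR adjusted p = 1.61e-13). MXD4, a repressor that pairs with MAX, had 7.78 and 10.8 CPM in the RPS26 libraries, 18.1 to 58.0 CPM in the other knockdowns and 15.5 to 28.8 CPM in the controls (log2 fold change −1.77 against the other knockdowns, adjusted p = 1.04e-07). Both RPS26 libraries received the same siRNA treatment, so effects of lost RPS26 and of the siRNA's own sequence cannot be told apart.

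Footprints report the ribosomes on each coding sequence. Against the controls, the footprints of 1383 genes were higher (11.1% of 12416 tested) and of 1606 lower (12.9%); against NC11 alone, 19% were higher and 18.9% lower. Against the other knockdowns, 1003 were higher (8.08%) and 717 lower (5.77%), and against the 8 targets among sample numbers 1 to 11, 12.9% were higher and 10.3% lower. NOLC1 footprints had 458 and 475 CPM in the RPS26 libraries, 118 to 584 CPM (median 352) in the other knockdowns and 95.5 to 116 CPM (median 110) in the controls (log2 fold change 2.13 ± 0.11 against the controls, adjusted p = 3.38e-16). TUFT1 footprints had 46.8 and 40.7 CPM in the RPS26 libraries and 8.29 to 9.87 CPM in the controls (log2 fold change 2.23, adjusted p = 5.81e-14). FKBP9 footprints fell as its mRNA did, to 14.8 and 13.7 CPM in the RPS26 libraries, against 50.9 to 76.8 CPM in the other knockdowns and 57.5 to 74.0 CPM in the controls. Their log2 fold change was −2.15 ± 0.12 against the controls (adjusted p = 3.44e-15). TFB2M, the transcription factor of the mitochondrial RNA polymerase, had 17.4 and 18.5 CPM of footprints in the RPS26 libraries and 62.1 to 96.1 CPM in the controls (adjusted p = 2.89e-11). Its mRNA had 5.79 and 5.75 CPM in the RPS26 libraries and 12.9 to 25.2 CPM in the controls (adjusted p = 2.65e-07). For NOLC1, TUFT1, FKBP9 and TFB2M, no control library reached the RPS26 values.

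**Figure D2:**
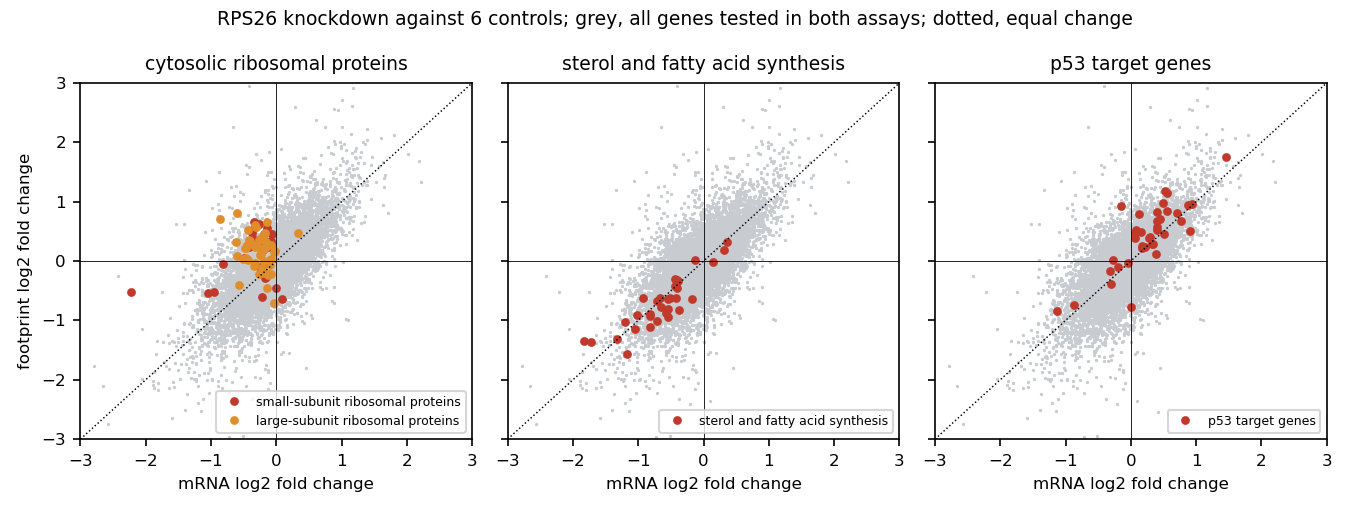
Log2 fold change in mRNA (x axis) and in footprints (y axis) of each gene tested in both assays, RPS26 knockdown over the 6 controls, with axes ending at 3 on either side. Ribosomal proteins, sterol and fatty acid synthesis genes and p53 targets are coloured. Sterol genes lie mostly at the lower left and p53 targets at the upper right, while most ribosomal proteins lie left of 0 for mRNA and above 0 for footprints. RPS26 itself had too few footprints to be drawn.

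Among 38 target genes of p53, 10 mRNAs rose and 1 fell against the controls (median log2 fold change 0.31, against −0.04 over all mRNAs), and footprints of 20 rose and of 4 fell (median 0.48, against −0.03 over all footprints). XPC, the damage sensor of nucleotide excision repair, had 74.4 and 77.3 CPM of mRNA in the RPS26 libraries, 38.9 to 136 CPM (median 74.6) in the other knockdowns and 25.4 to 31.2 CPM (median 27.1) in the controls. It rose by 1.46 ± 0.09 against the controls (adjusted p = 1.05e-12), and its footprints by 1.76 ± 0.10 (adjusted p = 2.79e-14), with both RPS26 libraries above all controls. CYFIP2 had 131 and 135 CPM of mRNA in the RPS26 libraries and 64.1 to 86.3 CPM in the controls (adjusted p = 2.61e-09). POLH, a translesion polymerase, had 26.8 and 28.2 CPM in the RPS26 libraries and 14.3 to 18.6 CPM in the controls (adjusted p = 4.37e-06). MDM2, the ubiquitin ligase of p53, had 259 and 232 CPM of mRNA in the RPS26 libraries and 51.7 to 257 CPM in the controls, which overlapped (log2 fold change 0.56 ± 0.30, adjusted p = 0.209). Its footprints were apart, with 194 and 192 CPM in the RPS26 libraries and 60.1 to 131 CPM in the controls (log2 fold change 1.14 ± 0.19, adjusted p = 3.16e-05). The one p53 target whose mRNA fell was GDF15, at 74.8 and 76.0 CPM in the RPS26 libraries and 120 to 243 CPM in the controls. The mRNA count was 16 higher and 1 lower against NC11 alone, 7 and 1 without the first RPS26 library, and 5 and 1 without the second. The footprint count was 13 higher and 1 lower without the first RPS26 library and 15 and 1 without the second.

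Set beside the other knockdowns, the p53 targets of RPS26 knockdown were low: no mRNA was higher and 10 were lower (median −0.35), and no footprint level was higher and 9 were lower (median −0.29). With either RPS26 library left out, 4 mRNAs were lower. CDKN1A, which encodes the cell cycle inhibitor p21, had 184 and 190 CPM of mRNA in the RPS26 libraries, 137 to 1292 CPM (median 346) in the other knockdowns and 137 to 238 CPM (median 179) in the controls. The RPS26 values lay in the middle of the controls (log2 fold change 0.07, adjusted p = 0.8) and below the median of the other knockdowns (−0.99 ± 0.15, adjusted p = 5.13e-05). BTG2, an antiproliferative p53 target, had 17.5 and 21.2 CPM in the RPS26 libraries, 21.7 to 232 CPM (median 60.8) in the other knockdowns and 13 to 19.1 CPM in the controls. Both RPS26 libraries were below every other knockdown (−1.61 ± 0.16, adjusted p = 3.75e-08). SESN1, a stress-induced inhibitor of mTORC1 signalling, had 5.66 and 7.16 CPM in the RPS26 libraries, 5.17 to 53.7 CPM (median 17.6) in the other knockdowns and 5.31 to 8.91 CPM in the controls (−1.43 against the other knockdowns, adjusted p = 8.2e-07). As a per-library median log2 ratio to the controls, the p53 list stood at 0.37 and 0.43 in RPS26 knockdown; the 15 other targets ran from 0.00215 (RPS15) over a median of 0.72 to 1.56, and 13 of them were above RPS26.

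Cell cycle genes were compared with the controls and with the other knockdowns. In such bulk libraries, fewer cycling cells and less RNA per cell cannot be told apart. Of 40 genes of mitosis, 2 mRNAs rose and 5 fell against the controls (median −0.14). Without the first RPS26 library 1 rose and 2 fell, and without the second 2 fell. In contrast, 22 were higher and none lower against the other knockdowns (median 0.65, against 0.02 over all mRNAs). TPX2, a spindle assembly factor, had 261 and 274 CPM of mRNA in the RPS26 libraries, 36.2 to 276 CPM (median 178) in the other knockdowns and 191 to 236 CPM (median 211) in the controls. It was at the top of the range of the other knockdowns, from which it differed by 0.79 ± 0.09 (adjusted p = 4.1e-07). CCNA2 footprints, of the S and G2 phase cyclin, had 131 and 124 CPM in the RPS26 libraries, 20.8 to 158 CPM (median 82.6) in the other knockdowns and 153 to 175 CPM in the controls. They differed from the mean of the other knockdowns by 0.91 ± 0.08 (edgeR adjusted p = 5.74e-10) but lay within the range of the other knockdowns. In footprints, 3 of the 40 mitosis genes rose and 9 fell against the controls (none and 5 without the first RPS26 library, 3 and 5 without the second), and 33 were higher than in the other knockdowns and none lower (median 0.65). Without an RPS26 library the mRNA count against the other knockdowns fell to 6 (first left out) or 5 (second left out), and the footprint count to 23 or 29. As a library median of the mitosis mRNAs, RPS26 knockdown stood at 0.06 and −0.05, and the other targets ran from −1.96 (RPL15) over a median of −0.40 to 0.10 (RPL29), with only RPL29 above RPS26.

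Of 48 genes of DNA replication and the G1/S transition, 3 mRNAs rose and 17 fell against the controls (median −0.24). Compared with the other knockdowns, 27 were higher and 1 lower (median 0.43). The mRNA library medians of −0.186 and −0.183 in RPS26 knockdown lay within the −0.216 to 0.209 of the controls. In footprints, the medians of −0.272 and −0.268 lay below the −0.134 to 0.102 of the controls. Of the 47 tested in footprints, none rose and 19 fell against the controls (12 without the first RPS26 library), and 30 were higher and 1 lower than in the other knockdowns (17 higher without the first RPS26 library). GINS1, a subunit of the replicative helicase, had 47.8 and 50.0 CPM of mRNA in the RPS26 libraries and 88.5 to 132 CPM in the controls (log2 fold change −1.16, adjusted p = 4.05e-08). CCNE2, a cyclin of the G1/S transition, had 2.77 and 3.12 CPM of footprints in the RPS26 libraries, 1.51 to 18.9 CPM (median 6.62) in the other knockdowns and 15.6 to 25.4 CPM (median 19) in the controls. It was several-fold below every control (log2 fold change −2.75 ± 0.27, adjusted p = 2.95e-09) but within the range of the other knockdowns. CDC6, which loads the helicase, had 72.1 and 71.4 CPM of mRNA in the RPS26 libraries, 16.0 to 98.9 CPM (median 47.3) in the other knockdowns and 78.1 to 101 CPM in the controls (0.67 against the other knockdowns, adjusted p = 6.03e-06). Without the first RPS26 library, the mRNA counts were 1 higher and 2 lower against the controls and 9 higher against the other knockdowns; without the second, 6 were lower against the controls and 5 higher against the other knockdowns. Of 45 histone genes that passed the low-count filter, of 54 listed, no mRNA rose and 11 fell against the controls (median −0.34). Against NC11 alone, however, 1 rose and 4 fell (median −0.02). The histone mRNA library medians of −0.359 and −0.228 in RPS26 knockdown overlapped the −0.274 to 0.707 of the controls. In footprints, 4 of 49 rose and 15 fell against the controls (median −0.20), and 6 rose and 22 fell against NC11 alone (median −0.26). Against the controls, 5 footprint levels fell without the first RPS26 library and 6 without the second. Without the first NC20 library 7 histone mRNAs fell, without the first RPS26 library 1 and without the second 2. Relative to the other knockdowns, 25 mRNAs were higher and none lower (median 0.49). That count was 6 without the first RPS26 library, 0 by edgeR without the second, and 42 without the second NC20 library.

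**Figure D3:**
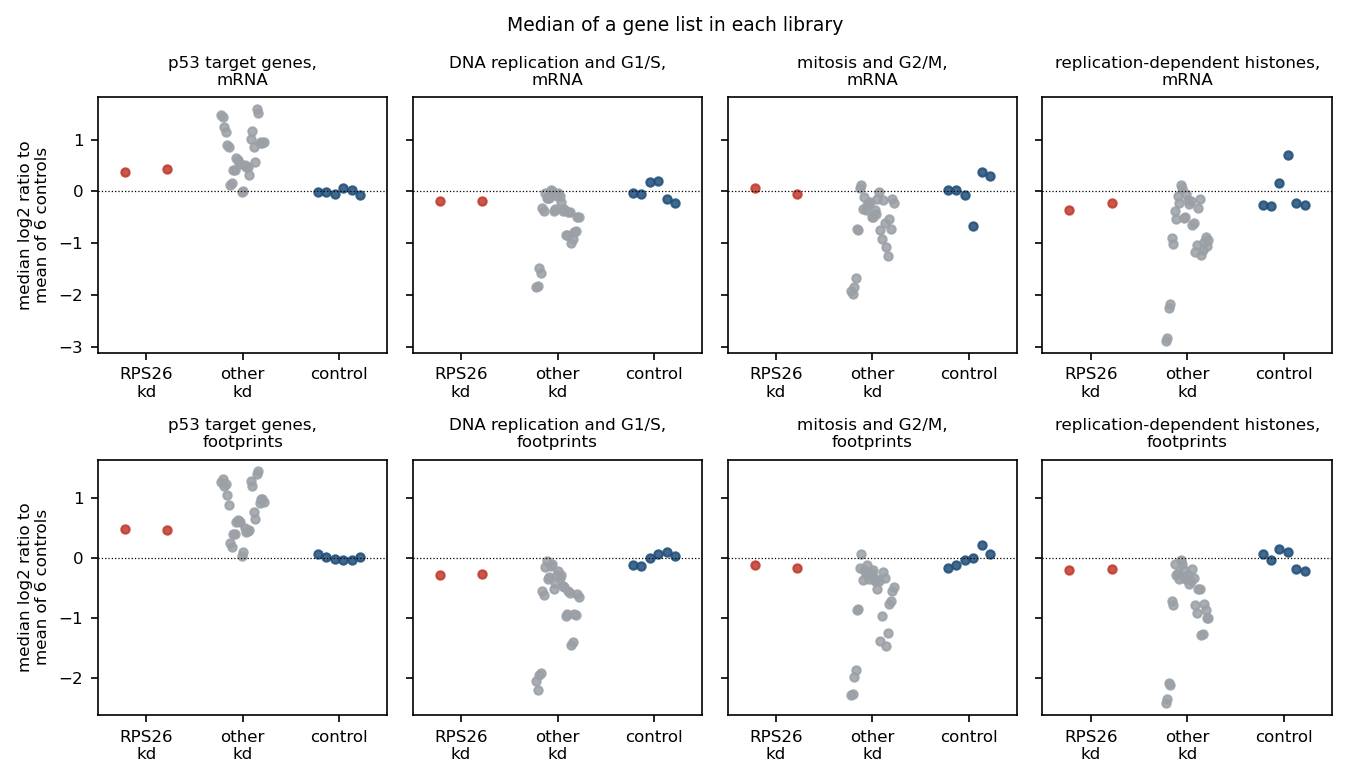
Median over 4 gene lists (p53 targets, DNA replication and G1/S, mitosis, histones) in each library, as a log2 ratio to the mean of the 6 controls, for mRNA and for footprints. Points are libraries of RPS26 knockdown, the 15 other knockdowns and the controls. The p53 median of RPS26 knockdown lies between the controls and most other knockdowns, and its mitosis median lies near 0, where most other knockdowns lie lower.

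Genes of sterol and fatty acid synthesis, which the transcription factor SREBP drives, fell together. Of 32 such genes, 1 mRNA (ACACA) rose and 19 fell against the controls (median −0.56), and footprints of 1 (PMVK) rose and of 23 fell (median −0.72). INSIG1, which retains SREBP in the endoplasmic reticulum and is itself a target of it, had 35.7 and 34.4 CPM of mRNA in the RPS26 libraries, 37.4 to 126 CPM (median 85.7) in the other knockdowns and 66.7 to 94.2 CPM (median 80.3) in the controls. Its footprints had 23.6 and 25.6 CPM in the RPS26 libraries, 28.4 to 98.2 CPM (median 64.9) in the other knockdowns and 63.2 to 79.8 CPM (median 73.3) in the controls. In both assays the RPS26 libraries were the lowest of all; the log2 fold change was −1.17 ± 0.13 for mRNA (adjusted p = 6.24e-08) and −1.56 ± 0.15 for footprints (adjusted p = 2.53e-09) against the controls. FADS2, a fatty acid desaturase, had 375 and 371 CPM of footprints in the RPS26 libraries and 662 to 940 CPM in the controls (log2 fold change −1.03). Against the other knockdowns, 8 mRNAs of the list were lower and none higher (median −0.33), and footprints of 12 were lower and none higher (median −0.34). As a library median of mRNA, RPS26 knockdown stood at −0.54 in both libraries, below the controls, which ran widely from −0.317 to 0.528. The other targets ran from −0.66 (RPL24) over a median of −0.19 to 0.28 (RPS15), and 14 of the 15 were above RPS26. Leaving out 1 RPS26 library left 8 or 13 lower mRNAs and 15 or 16 lower footprint levels against the controls. For the other knockdowns it left 1 lower mRNA with either library left out and 3 or 4 lower footprint levels, while 15 mRNAs were lower without the second NC20 library.

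The 28 targets of NRF2, the regulator of the antioxidant response, had mRNA library medians of −0.237 and −0.195 in RPS26 knockdown. These overlapped the −0.213 to 0.501 of the controls. In footprints, the medians of −0.191 and −0.184 lay within the −0.194 to 0.157 of the controls. Of the 28, 1 mRNA (ME1) rose and 9 fell against the controls (median −0.25). Against the other knockdowns, 7 mRNAs were lower and none higher. Without the first RPS26 library 5 fell against the controls, without the second NC20 library 3 rose and 10 fell, and with either RPS26 library left out 0 were called against the other knockdowns by edgeR. GCLM, a subunit of the enzyme that limits glutathione synthesis, had 115 and 120 CPM of footprints in the RPS26 libraries and 286 to 547 CPM (median 337) in the controls (log2 fold change −1.71, adjusted p = 1.33e-07). Its mRNA was likewise low in both RPS26 libraries, at 42.9 and 48.7 CPM, against 64.8 to 199 CPM in the controls (adjusted p = 4.06e-05). Of 34 genes of the integrated stress response, which ATF4 leads, 4 mRNAs fell and none rose, CHAC1, SLC7A5, ATF4 and VEGFA, while footprints of 5 rose and of 5 fell; the share of lower mRNAs was near the background of 9.71%. With the first RPS26 library left out 2 mRNAs fell, with the second 1, and without the second NC20 library 2 rose and 6 fell. The footprint counts were 2 higher and 1 lower without the first RPS26 library and 1 and 3 without the second. SLC7A5, an amino acid transporter, had 477 and 536 CPM of footprints in the RPS26 libraries and 1057 to 1312 CPM in the controls (log2 fold change −1.25), well apart. Of 20 heat shock genes, 1 mRNA rose and 4 fell, and 3 fell with either RPS26 library left out. The matrix and cell adhesion list gave 10 higher and no lower mRNAs of 32. Against NC11 alone the matrix counts were 7 higher and 6 lower, and with either RPS26 library left out 6 rose against all controls.

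For the remaining lists, counts of mRNAs against the controls are to be read beside the 9.43% higher and 9.71% lower over all mRNAs. Of 9 proteins that line the exit channel with eS26, 2 mRNAs fell and none rose, and of the 8 tested in footprints 2 rose and 1 fell. Of 30 lysosomal genes, 1 mRNA rose and 7 fell; without the first RPS26 library 4 fell, without the second 3, and without the second NC20 library 4 rose and 7 fell. Of 17 genes of heme synthesis and iron handling, which red cell precursors need, no mRNA rose and 4 fell, but 1 fell with either RPS26 library left out. Footprints of 1 of the 17 rose and of 6 fell, and 6 fell with either RPS26 library left out. Of 30 initiation factors outside eIF3, 4 mRNAs rose and 5 fell; without the first RPS26 library 1 rose and 2 fell, and without the second 2 fell. Their footprints rose for 6 and fell for 4, with 1 and 2 without the first RPS26 library and 3 and 3 without the second. Of 30 genes of 40S quality control and ribosome rescue, 4 mRNAs rose and 4 fell, and 7 rose and 4 fell without the second NC20 library. Of 47 nuclear genes of oxidative phosphorylation, 4 mRNAs rose and 3 fell, and with either RPS26 library left out 3 rose and none fell. Of 21 genes of actin and smooth muscle type that passed the filter, of 25 listed, 7 mRNAs rose and 1 fell; 4 rose without the first RPS26 library and 3 without the second.

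Translation efficiency, the log2 ratio of footprint to mRNA CPM in the same lysate, changed for far fewer genes. Against the controls, 93 genes were higher (0.762% of 12199 tested) and 184 lower (1.51%) by limma; against NC11 alone, 1.5% were higher and 3.69% lower. Against the other knockdowns, 16 genes were higher (0.131%) and 7 lower (0.0574%), and against the 8 targets among sample numbers 1 to 11, 0.677% were higher and 0.334% lower. Ribosomal protein genes were among the higher ones. Of 31 small-subunit protein genes, 10 were higher and none lower against the controls (median 0.46, against −0.05 over all genes), and of 46 large-subunit protein genes, 15 were higher and none lower (median 0.49). Without 1 RPS26 library, 2 or 3 small-subunit and 3 large-subunit genes were left. In the comparison with the other knockdowns, 3 small-subunit genes (median 0.44) and 4 large-subunit genes (RPL10A, RPL4, RPL5 and RPL13A; median 0.38) were higher and none lower; against the 8 targets among sample numbers 1 to 11, these counts were 16 and 18. These calls rested on the pair: without the first RPS26 library 0 small-subunit genes and 1 large-subunit gene were left against the other knockdowns, and without the second 0 of each by limma; without the second NC20 library, 8 and 9 were higher. As a library median, small-subunit efficiency stood at 0.48 and 0.38 in RPS26 knockdown; the other targets ran from −0.80 (RPL21) over a median of 0.17 to 0.51 (RPS16), with 4 of them above RPS26.

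The 5′ ends of genes whose efficiency rose are shown because the TOP motif lies there. The stretches run from 10 bases before the annotated start to 20 from it on, 5′ to 3′ in gene sense (RefSeq, GRCh38.p14). Capitals mark an unbroken run of pyrimidines that begins with a C at the start base; a stretch without capitals has no such run. The first 5 were picked from genes that have the run.
RPL13A (chr19:49487598-49487627, plus strand): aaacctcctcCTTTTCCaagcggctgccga
RPS23 (chr5:82278335-82278364, minus strand): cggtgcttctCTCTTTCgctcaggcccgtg
RPS27 (chr1:153990752-153990781, plus strand): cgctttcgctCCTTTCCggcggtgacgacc
NOP53 (chr19:47745536-47745565, plus strand): tggctgagttCTTCCTTTgacaagatggcg
EIF4B (chr12:53006446-53006475, plus strand): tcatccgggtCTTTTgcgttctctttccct
The start stretches of 4 genes whose efficiency fell are given for comparison. In TTL and PRXL2A, a C followed by at least 4 pyrimidines begins within 5 bases after the start base, and it carries no capitals.
CTSZ (chr20:59007235-59007264, minus strand): gcaggggcccaaagtgcggggtcggccggg
TTL (chr2:112482146-112482175, plus strand): tgcgagcggcgctttcctctccggcacccg
PRXL2A (chr10:80408541-80408570, plus strand): caagcgcggggcccgcccctgggaccctcc
NTAN1 (chr16:15056055-15056084, minus strand): ggggcaggacgaggcgggacgcgcggcccg

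RPL13A (uL13) had log2 efficiencies of −2.37 and −2.16 in the RPS26 libraries, −5.71 to −2.32 (median −3.41) in the other knockdowns and −4.42 to −3.32 (median −3.73) in the controls. Both RPS26 libraries were above all controls, by 1.5 ± 0.20 (adjusted p = 3.47e-05). Both sides of the ratio moved. Its mRNA had 1418 and 1456 CPM in the RPS26 libraries and 1687 to 4122 CPM in the controls (log2 fold change −0.86 ± 0.20, adjusted p = 0.00235). Its footprints had 275 and 325 CPM in the RPS26 libraries and 155 to 241 CPM in the controls (log2 fold change 0.70). The mRNA call was lost without the first RPS26 library. Ribosomal protein genes have processed copies elsewhere in the genome, and how reads that match several places were counted is not given in the sources used here, so their levels, and RPL13A's low ratio, are uncertain while the same counting applied to every library. RPS23 (uS12, at the decoding centre) had log2 efficiencies of 1.48 and 1.48 in the RPS26 libraries and 0.37 to 0.75 in the controls (0.88 ± 0.12, adjusted p = 7.4e-05). RPL4 (uL4) had −0.46 and −0.65 in the RPS26 libraries and −1.70 to −1.17 in the controls (0.88, adjusted p = 4.66e-05). RPL5 (uL18), of the 5S particle, had 0.90 and 0.82 in the RPS26 libraries and −0.34 to 0.16 in the controls (0.94, adjusted p = 0.000341). NOP53, a factor of 60S maturation, had 0.66 and 0.63 in the RPS26 libraries and −1.09 to −0.38 in the controls (1.41 ± 0.17, adjusted p = 9.65e-06). In none of these genes did the controls reach the RPS26 values, and the calls of RPL13A, RPS23, RPL4, RPL5 and NOP53 held with either RPS26 library left out. RPS27, low in mRNA, had a log2 efficiency of −4.77 and −4.37 in the RPS26 libraries and −7.43 to −5.80 in the controls (1.98 ± 0.36, adjusted p = 0.00194). Its footprints were few, at 1.38 and 2.01 CPM in the RPS26 libraries and 0.784 to 4.52 CPM in the controls, a difference that did not pass the test (adjusted p = 0.49).

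Footprints of ribosomal protein genes were also compared by themselves. Of 31 small-subunit genes, footprints of 9 rose and of 3 fell against the controls (median 0.24), and of 46 large-subunit genes, 9 rose and 1 fell (median 0.21). Without the first RPS26 library these counts were 6 and 1 for the small and 5 and 1 for the large subunit, and without the second 7 and 1 for the small subunit. RPS19 (eS19), the most often mutated gene of Diamond-Blackfan anaemia, had 4572 and 4595 CPM of footprints in the RPS26 libraries and 2515 to 3178 CPM in the controls (log2 fold change 0.67, adjusted p = 7.91e-07). RPS14 went the other way, with 611 and 619 CPM of footprints in the RPS26 libraries, 914 to 1666 CPM in the other knockdowns and 857 to 976 CPM in the controls (−0.55 ± 0.10, adjusted p = 9.58e-05), as in its mRNA. Of 22 translation factors and other genes of the TOP class, efficiency rose for 5 (among them EEF1G, EIF3F, EIF4B and EEF1B2) and fell for 1 (PABPC1) against the controls (median 0.22), with 1 higher without the first RPS26 library and 2 without the second. Against the other knockdowns, 0 of the 22 were called by limma in either direction (median 0.30); 8 were higher against the 8 targets among sample numbers 1 to 11, and 6 against all other knockdowns without the second NC20 library. EEF1G, a subunit of the elongation factor that reloads eEF1A with GTP, had −2.01 and −2.18 in the RPS26 libraries and −3.69 to −2.97 in the controls (1.04, adjusted p = 7.65e-05). Of 13 subunits of eIF3, the factor that binds the 40S subunit near the mRNA channel, footprints of 7 rose and none fell (median 0.24), and efficiency of 2 rose; with either RPS26 library left out, footprints of 3 rose. EIF3F footprints had 129 and 133 CPM in the RPS26 libraries and 60.3 to 85.8 CPM in the controls (log2 fold change 0.92, adjusted p = 4.17e-07). The 50 mitochondrial ribosomal protein genes, which encode a separate ribosome, had a median difference in efficiency of −0.01.

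A search of the annotated starts for a C at the start base followed by at least 4 pyrimidines (C or T, gene sense only) found 546 of 9741 tested genes with a sequence (5.61%). Of the genes with higher efficiency against the controls, 15 of 69 had such a start (21.7%), and of those with lower efficiency, 9 of 144 (6.25%). Without ribosomal proteins the first share was 3 of 51 (5.88%), near that of all genes, while 43 of 61 ribosomal protein genes had such a start (70.5%). The 503 other genes with such a start had a median log2 difference in efficiency of −0.04, against −0.06 in genes without one. In the whole promoter table, 4.04% of starts matched. With the C allowed up to 5 bases to either side of the start base, 23% of the tested genes matched. The shares were then 39.1% of the genes with higher and 20.1% of those with lower efficiency against the controls. Without ribosomal proteins, 21.6% of the genes with higher efficiency matched.

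**Figure D4:**
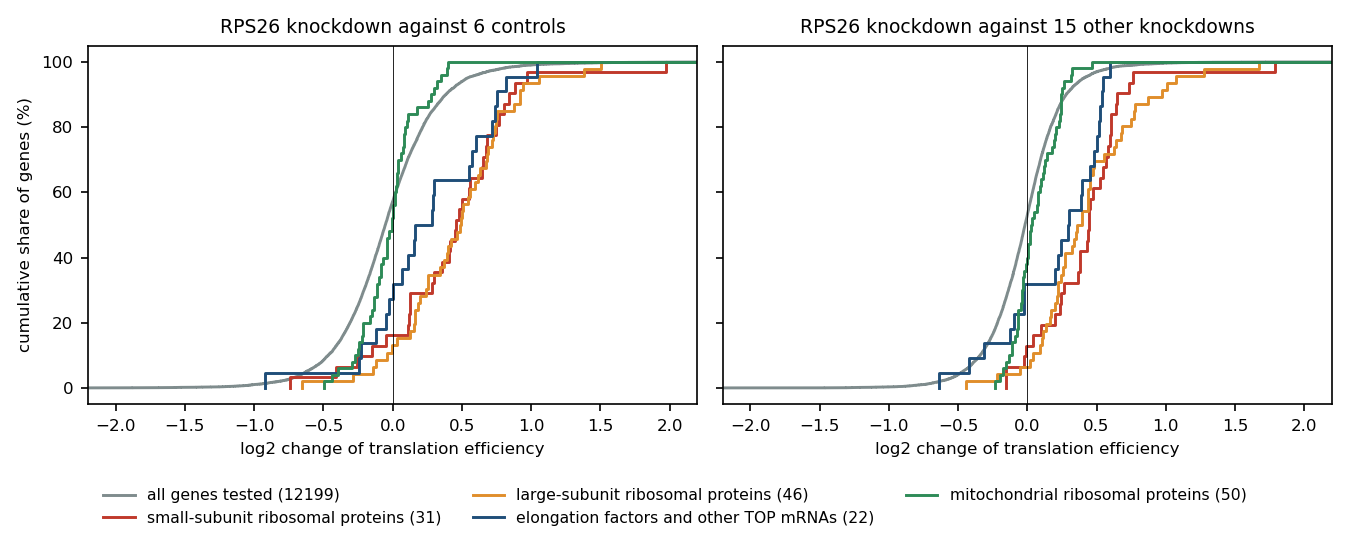
Cumulative share of genes (y axis, percent) by log2 difference in translation efficiency (x axis) for all 12199 genes tested, 31 small-subunit, 46 large-subunit and 50 mitochondrial ribosomal protein genes and 22 TOP translation factor genes; one panel shows RPS26 knockdown minus the 6 controls and the other RPS26 knockdown minus the 15 other knockdowns. Cytosolic ribosomal protein curves lie to the right of the curve of all genes in both panels, with medians of 0.46 and 0.49 against the controls.

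The genes with the largest loss of efficiency were of mixed function. TTL, tubulin tyrosine ligase, had log2 efficiencies of −4.00 and −4.40 in the RPS26 libraries and −3.08 to −2.10 in the controls (−1.61 ± 0.22, adjusted p = 4.66e-05). NTAN1, an asparagine amidase of the N-degron pathway, had −3.63 and −3.28 in the RPS26 libraries and −2.19 to −1.22 in the controls (−1.67 ± 0.25, adjusted p = 0.000137). PRXL2A had −2.02 and −2.25 in the RPS26 libraries and −1.01 to −0.35 in the controls (−1.35 ± 0.16, adjusted p = 9.65e-06), and −0.72 against the other knockdowns (adjusted p = 0.0261). In all 3 genes both RPS26 libraries lay below every control. CTSZ, a lysosomal cysteine protease, had −1.05 and −1.17 in the RPS26 libraries and −0.30 to 0.24 in the controls (−1.06 ± 0.14, adjusted p = 3.47e-05), and −0.65 against the other knockdowns (adjusted p = 0.0169). Against the controls, the calls of TTL, NTAN1, PRXL2A and CTSZ held with either RPS26 library left out; the calls of PRXL2A and CTSZ against the other knockdowns did not.

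Footprints on the mRNAs that mitochondria encode were high in the RPS26 libraries, but unequally so. Of 13 such mRNAs, footprints of 11 rose and none fell against the controls (median log2 fold change 1.12), 8 rose against NC11 alone, and 8 were higher than in the other knockdowns. MT-CO3, a cytochrome oxidase subunit, had 1910 and 1075 CPM of footprints in the RPS26 libraries, 402 to 1605 CPM (median 751) in the other knockdowns and 240 to 646 CPM (median 460) in the controls (1.70 ± 0.25, adjusted p = 3.78e-06). The first RPS26 library was above all others and the second within the range of the other knockdowns. Footprints of 2 mitochondrial mRNAs rose without the first RPS26 library; without the second, 11 did. Set against the other knockdowns, no footprint call was left by edgeR without the first RPS26 library. Efficiency rose for 6 of the 13 against the controls, but for 2 against NC11 alone, for 0 by limma without the first RPS26 library and for 11 without the second NC20 library.

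The second RPS26 Ribo-seq library also held footprints of genes with almost no mRNA in these cells. Over 4552 genes under 0.5 CPM of mRNA in all 8 RPS26 and control RNA-seq libraries, footprints summed to 525 and 1230 CPM in the RPS26 libraries and 284 to 763 CPM in the controls. HBB, beta globin, had 9.41 and 228 CPM of footprints in the RPS26 libraries and 0 to 2.45 CPM in the controls. P2RY8, a receptor of lymphoid cells, had 23.2 and 87.9 CPM in the RPS26 libraries and 0 to 0.133 CPM in the controls. HBE1 (embryonic globin), SLC4A1 (the red cell anion exchanger), ALB (albumin) and AFP (alpha-fetoprotein) had 40.5, 34.1, 27.4 and 12.5 CPM in the second RPS26 library and 1.51, 0.79, 0.461 and 0.724 CPM in the first. Over all libraries of the fit, the highest HBB value outside these 8 was 27.5 CPM, and the highest P2RY8 value 129 CPM. These genes were chosen after their values were seen, from those with at least 5 CPM in the second RPS26 library and under 5 CPM in every control. Their place above the controls in that library follows from this choice. The source of the fragments was not tested. All 4552 low-mRNA genes together made 0.12% of the footprints of the second library.

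**Figure D5:**
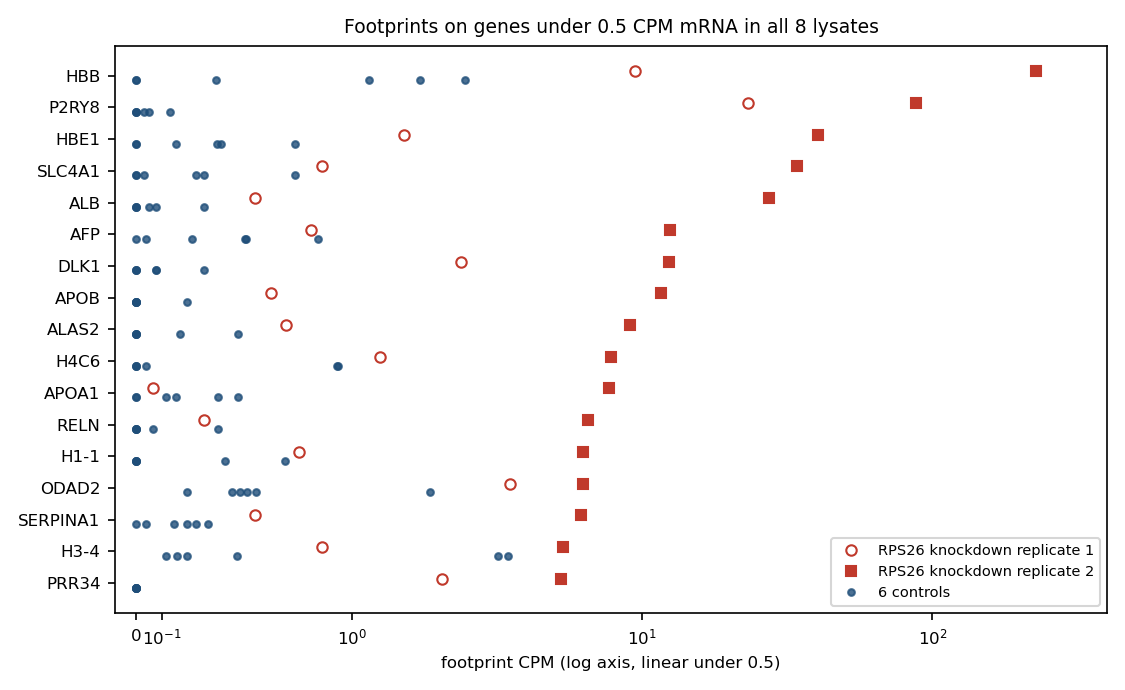
Footprint CPM of 17 genes with under 0.5 CPM of mRNA in all 8 libraries. They are shown for the first (open circles) and second (filled squares) RPS26 library and the 6 controls (blue). The genes were picked for at least 5 CPM in the second RPS26 library and under 5 CPM in every control. That library therefore lies above the controls in every row by choice. The axis is linear below 0.5 CPM and logarithmic above. The second RPS26 library lies above the controls for HBB, at 228 CPM, while the controls end at 2.45 CPM.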

How the data were processed

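RNA-seq and Ribo-seq counts per gene were taken as deposited; per the file headers, the authors counted RNA-seq reads over exons and footprints over coding sequences, as whole-number counts with no normalization. The submitters' processing notes name bcl2fastq 2.20.0.422, STAR 2.6.1 and cutadapt 1.8.1, with build GRCh38. No source used here gives the counting program, its strand setting, the annotation release or the treatment of reads that match several places. A symbol was matched to 31346 of 41379 gene identifiers of RNA-seq and to 18756 of 19217 of Ribo-seq. RPS26 Ribo-seq libraries were 14.5 and 15.5 M counts deep (M, the SI prefix mega) and control ones up to 41.9 M, so low footprint levels were less precise in RPS26 knockdown; counts of reads without molecular identifiers are not independent molecules.

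Per assay, 43 libraries were fitted together with a mean per group (2 libraries of each of 16 targets, the 6 controls, and 5 further controls titled NC1 to NC9), so that the spread was estimated over all of them. The fit was edgeR 4.0.16 (R 4.3.3, TMM scaling, quasi-likelihood test) on genes with at least 1 CPM in 2 of the 8 RPS26 and control libraries. Translation efficiency was the log2 ratio of footprint to mRNA CPM per lysate with a prior count of 2, tested with limma 3.58.1. In both, p-values were adjusted over all genes tested by Benjamini-Hochberg, with a threshold of 0.05, and the fold changes are RPS26 knockdown over controls, or over the mean of 15 other knockdowns, some of which lower ribosomal protein genes of the lists themselves. The 2 comparisons share the RPS26 libraries. In the second, the SE and p-values do not include the spread among the 15 targets.

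The libraries and 35 gene lists were chosen with earlier results of these data known. Genes were named by rule: the 10 largest changes in each direction against the controls, the 6 largest against the other knockdowns, the 3 smallest p-values of each list, and a short list that includes RPS26, TSR2, NOB1, PNO1, CDKN1A, MDM2 and MYC; some genes are not reported here. ACACA, ATF4, GDF15, ME1, PMVK, RPS9, RPS16 and the genes of low mRNA were named after their values were seen. DESeq2 1.42.0, RLE scaling, other filters, other controls, a replicate block and leaving out each library were alternatives; the script was tested on simulated data. No value column lacked a sample. Columns NC21_1 and NC21_2 were taken as the controls titled NC_21 and NC_22, in either order.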

Additional observations from a re-analysis of the deposited data

Results flagged for a closer look

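Of 223 sets of 6 control values of named genes and gene lists, not all of them reported above, 18 (8.1%) had 1 control library far from the other 5. The second NC20 library was the one in 15 of them, the second NC11 library in 2 and the first NC20 library in 1. Among independent values of a normal distribution, about 1 in 20 sets would be flagged. All sets share the same 6 libraries, which are pairs of NC11, NC20 and NC21, so that rate may not hold here. In mRNA, the second NC20 library stood high for B4GALT3 at 84.4 CPM, BIRC5 at 211 CPM, EIF4B at 425 CPM and RPS14 at 1025 CPM, and far from the others for BMS1 at 37.3 CPM, MCM10 at 39 CPM and TSR1 at 133 CPM. In translation efficiency, on the log2 scale, the same library was low for EEF1G at −3.69 and for RPS19 at 0.87.

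As list medians relative to the controls, on the log2 scale, the second NC20 library stood at −0.61 for mRNA and 0.53 for efficiency of early 40S assembly genes, at −0.53 for mRNA and 0.59 for efficiency of 60S assembly genes, and at −0.34 and −0.39 for efficiency of sterol genes and NRF2 targets. In footprints, the second NC11 library stood apart for BMS1 at 84.3 CPM and HBD at 0.464 CPM. The first NC20 library did so for EIF3A at 473 CPM. No other result is given here for B4GALT3, BIRC5, MCM10, HBD and EIF3A.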

How the results depend on the processing

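The counts of changed genes moved with the libraries taken. No named gene result turned in direction where it was called in the main or the alternative setting. Of 3537 settings over 215 named gene results, 3306 kept the side of the threshold, 218 lost the call, 13 gained one and 0 reversed. A change of sign in a result called in neither setting was not counted as a reversal. In every setting, 106 results kept their side of the threshold. In all settings except those that left out an RPS26 library or fitted the 8 libraries alone, 184 did.

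With only the 8 libraries, 33 mRNAs were higher and 24 lower against the controls, and footprints of 520 were higher and of 570 lower. Efficiency of 0 was higher and of 0 lower by limma (248 and 476 at an unadjusted p under 0.05). The spread was then estimated from those 8 libraries alone. With controls NC11 and NC20 only, the counts were 2536 and 3098 for mRNA, 2437 and 2449 for footprints, and 228 and 369 for efficiency. With NC11 alone, chosen after seeing the data, they were 2321 higher in footprints and 180 higher and 441 lower in efficiency. Against the 8 other targets of sample numbers 1 to 11, likewise chosen after seeing the data, they were 1381 and 1292 for mRNA, 1578 and 1259 for footprints, and 81 and 40 for efficiency. With no filter on low counts, efficiency was higher for 158 genes against the controls, and higher for 76 and lower for 18 against the other knockdowns. By an edgeR interaction of assay and group, 117 genes were lower in efficiency against the controls. The cause of these shifts was not tested.

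Leaving out 1 library at a time gave 605 to 1878 higher and 491 to 1918 lower mRNAs against the controls, and 73 to 1500 higher and 140 to 1176 lower against the other knockdowns; the highest of the last 2 came without the second NC20 library and the lowest without an RPS26 library. For footprints the ranges were 643 to 1648 higher and 673 to 1873 lower against the controls, and 246 to 1207 higher and 211 to 833 lower against the other knockdowns. For efficiency they were 17 to 148 higher and 19 to 349 lower against the controls, and 0 to 47 higher and 0 to 40 lower against the other knockdowns. The counts of 0, by limma, came without an RPS26 library, where 185 higher and 190 or 233 lower genes had an unadjusted p under 0.05. A lone RPS26 library was assumed to vary like the other groups.

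The replicate numbers were not taken to pair the samples. The deviations of RPS26 replicate 1 and the same-numbered NC11 and NC20 libraries correlated at −0.09 and 0.39 in mRNA and −0.03 and −0.12 in footprints. These values cover RPS26 and the controls only, and they do not settle whether the numbers pair the samples. The block was fitted over the 16 replicated targets with controls NC11 and NC20 only, so its counts stand beside those of that pair of controls without it. With the replicate number as a replicate block, mRNA counts against the controls were 2208 higher and 2913 lower (2536 and 3098 without the block), footprint counts 2780 and 2876 (2437 and 2449), and efficiency counts 293 and 480 (228 and 369); against the other knockdowns, footprint counts were 2011 and 1467 and efficiency counts 57 and 36.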
